A study of Schizosaccharomyces pombe with 8 samples.

Results

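The transcripts described here are 115 fission yeast noncoding RNAs whose level in the Rpb1 mutant S7A was at most 0.5 of their level in wild type (WT). They were taken from 1541 IDs starting SPNCRNA in a table of 7000 IDs. The level was CPM, the gene's count scaled to a common library size by the library's summed count, averaged over the 2 libraries of a strain. An RNA also had to average under 20 CPM in WT, to have 20 or more counts summed over the WT libraries, and to stay under 3 times its WT level in S2A; SPNCRNA.1307, SPNCRNA.1308 and SPNCRNA.1309 were left out by name. With the ratio set aside, 772 noncoding RNAs were eligible, so 657 of them form the comparison set below. The members were chosen by their measured levels in S7A and WT, with the limit on S2A, and every S7A value of a member below is a description with no test read from it.

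Rpb1 is the largest subunit of RNA polymerase II, and its carboxy-terminal domain (CTD) is a run of short repeats whose tyrosine and serine residues are phosphorylated in changing patterns during transcription. The marks recruit factors for initiation, histone modification, RNA processing and termination. Fission yeast transcribes many noncoding RNAs, some antisense to genes and some from the spaces between genes, and much of this RNA is removed quickly by the nuclear exosome. A few of them are known to repress a gene downstream by being transcribed through its promoter.

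Total RNA was sequenced after ribosomal RNA depletion in 4 strains of Schizosaccharomyces pombe with 2 libraries each. S7A carried rpb1 S7A::kanMX6 (serine 7 of the repeats to alanine), S2A carried rpb1 S2A::kanMX6 (serine 2 to alanine) and Y1F carried rpb1 Y1F::kanMX6 (tyrosine 1 to phenylalanine); WT had no kanMX6 at rpb1, so effects of the substitution and of the marker cannot be told apart. All 4 strains were h-, carried Rpb3-3HA::hphMX6 (a tagged polymerase subunit) and were grown in YES, a rich medium, to an OD of 0.5. The labels give 1 strain number per genotype and do not say that the libraries came from separate cultures, so a p-value reflects only how far these libraries spread, which may be technical.

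Libraries held between 13391705 and 23081870 counts. The rpb1 transcript stood at 375 and 378 CPM in S7A, 396 and 381 in S2A, and 457 and 460 in Y1F, against 701 and 688 CPM in WT, and these counts carry no view of the substituted codons. Its fitted log2 change against WT was −0.89 ± 0.0439 in S7A (SE; edgeR quasi-likelihood test, adjusted p = 2.23e-08), and whether this moves with the levels of the noncoding RNAs was not tested. In a bulk sample, fewer cells with a transcript and less transcript per cell cannot be told apart.

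The noncoding RNAs were a small part of each library, and their summed share was lowest in S7A. They took 0.01924% and 0.01852% of the counts in S7A, 0.04932% and 0.04535% in S2A, and 0.03534% and 0.03688% in Y1F, against 0.04866% and 0.05362% in WT. Y1F also lay below both WT libraries, while the S2A libraries overlapped the WT range. The other 657 eligible noncoding RNAs took 0.306% and 0.302% in S7A, 0.437% and 0.416% in S2A, and 0.354% and 0.3595% in Y1F, against 0.329% and 0.357% in WT. The 2 libraries of a strain differed over the members by a chi-square per gene of 0.943 in S7A, 1.69 in S2A, 1.29 in Y1F and 1.85 in WT, where 1 is sampling noise alone. Over all genes with enough counts it was 8.08 in S7A, 8.42 in S2A, 4.82 in Y1F and 10.7 in WT. The member values, from RNAs of low counts, thus do not describe the libraries as a whole.

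Across the 115 noncoding RNAs the S7A level ran between 10.4% and 49.98% of WT, with a median of 38.2%. It was up to 20% of WT for 7 RNAs, over 20 and up to 30% for 21, over 30 and up to 40% for 38, and over 40% for 49. Both S7A libraries lay below both WT libraries for 114 of 115; over all IDs this held for 34.7%. The fit across all genes tested 113 of the 115 (SPNCRNA.432 and SPNCRNA.1314 had too few counts), and 104 were called lower in S7A, beside a background of 24.3% lower and 23.1% higher over the 6243 genes tested. Since the rule used this contrast, nothing is read from that count. Just inside the threshold, SPNCRNA.611, SPNCRNA.767 and SPNCRNA.427 had S7A to WT ratios of 0.492, 0.494 and 0.4998; just outside, SPNCRNA.520, SPNCRNA.1025 and SPNCRNA.1237 had 0.501, 0.504 and 0.506. The cut therefore falls inside a continuous range. Of the 772 eligible noncoding RNAs, 569 lay below their WT mean in S7A by any amount. At the 2-fold limit, 115 were at most 0.5 of WT and 10 were at 2 times the WT mean or more. Eligibility asks for a minimum of WT counts and limits S2A, so these counts are not free of the rule.

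The deepest reductions included RNAs of low and of high level. SPNCRNA.1605, which has no coding gene opposite it, stood at 0.179 and 0.433 CPM in S7A, 2.69 and 2.43 in S2A, and 1.49 and 1.501 in Y1F, against 2.99 and 2.87 CPM in WT. Every mutant library lay below WT, with S2A closest to it. Its fitted S7A change was −3.15 ± 0.34 on the log2 scale (SE), and −3.998 without S7A replicate 2. SPNCRNA.1192 lies wholly opposite wtf11, one of the wtf genes, a meiotic driver family of closely similar copies in which reads are hard to place. It stood at 2.50 and 2.34 CPM in S7A, 5.73 and 4.52 in S2A, and 8.59 and 8.32 in Y1F, against 11.9 and 13.1 CPM in WT, an order in which no strain overlapped the next. SPNCRNA.613, antisense to hsp3102, was low in all 3 mutants, at 0.954 and 0.823 CPM in S7A, 1.44 and 1.48 in S2A, and 1.72 and 1.41 in Y1F, against 5.92 and 4.99 CPM in WT.

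Some of the deepest S7A reductions stood beside levels above WT in S2A. SPNCRNA.1340 had 1.85 and 1.43 CPM in S7A, 17.9 and 17.1 in S2A, and 6.27 and 7.69 in Y1F, against 8.03 and 8.34 CPM in WT. SPNCRNA.944, which lies upstream of pma1, the plasma membrane proton pump, had 1.67 and 1.52 CPM in S7A, 12.9 and 14.6 in S2A, and 3.14 and 2.73 in Y1F, against 9.62 and 6.84 CPM in WT. The S7A and Y1F libraries were both below WT for SPNCRNA.944, and the S2A libraries were both above. The remaining members among the 8 lowest ratios, SPNCRNA.1313, SPNCRNA.1310 and SPNCRNA.1218, averaged 18.0%, 19.7% and 19.9% of WT in S7A, each from at most 19 counts summed over both libraries; SPNCRNA.1310 gave −3.38 without S7A replicate 1 and −1.72 without S7A replicate 2, against −2.43 with all libraries.

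The 10 noncoding RNAs with the highest WT level averaged between 11.0 and 18.2 CPM in WT, and they differed in the other mutants. SPNCRNA.1087 was the highest, at 8.402 and 8.45 CPM in S7A, 7.92 and 7.82 in S2A, and 7.92 and 7.004 in Y1F, against 17.3 and 19.2 CPM in WT. All 6 mutant libraries lay in one range below WT. SPNCRNA.1277, wholly antisense to pep3, a vacuolar sorting gene, stood at 3.28 and 2.17 CPM in S7A, 16.3 and 14.8 in S2A, and 4.56 and 3.96 in Y1F, against 11.5 and 11.4 CPM in WT. Its S7A and Y1F libraries lay far below WT and its S2A libraries above.

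SPNCRNA.1618 gave the opposite picture in Y1F. It stood at 5.24 and 5.37 CPM in S7A, 31.4 and 27.3 in S2A, and 26.8 and 28.7 in Y1F, against 9.81 and 12.7 CPM in WT. S7A alone was below WT there, and both other mutants were above it without overlap. SPNCRNA.722 had 5.60 and 5.03 CPM in S7A, 12.005 and 13.8 in S2A, and 18.1 and 17.6 in Y1F, against 12.04 and 15.1 CPM in WT, so that S2A overlapped WT and only S7A was below it.

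**Figure D1:**
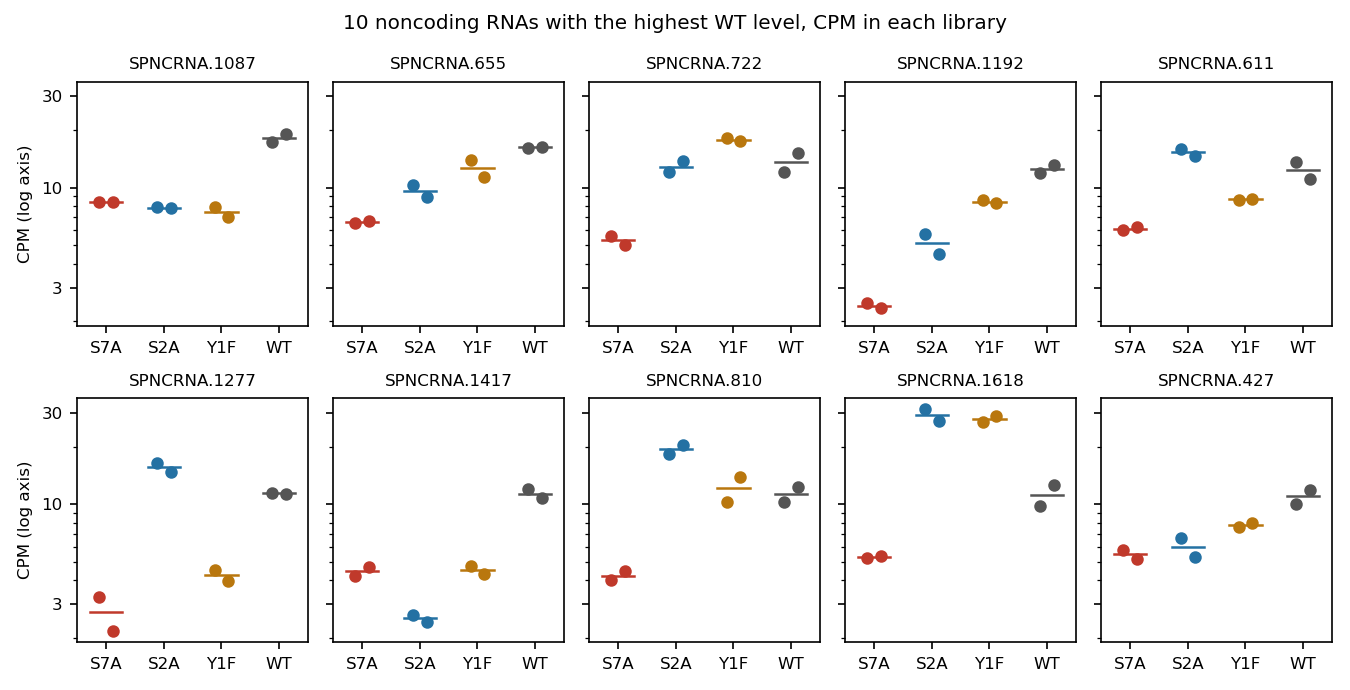
CPM (log axis) of the 10 members with the highest WT level, one panel each; points are single libraries and short lines are strain means. S7A lies below WT in every panel, as the rule requires, while S2A and Y1F range between well below WT (SPNCRNA.1417) and well above it (SPNCRNA.1618, 29.3 and 27.8 CPM on average in S2A and Y1F, against 11.2 CPM in WT).

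The rule did not use the place of the members in the annotation, their names or their clustering. Of the 115, 112 were found in the reference annotation (ASM294v3), which is a later build than that of the counts and was used only for names and neighbourhoods. A noncoding RNA is called antisense here when at least 50% of its length lies opposite a protein-coding gene, and partly antisense when a smaller share does. Members were antisense in 27 cases (23.5%) and partly antisense in 17 (14.8%), against 309 (47.0%) and 131 (19.9%) of the 657 other eligible RNAs. No coding gene lay opposite 68 members (59.1%), against 207 (31.5%) of the others. These shares are descriptions; levels and lengths of the classes were not matched. Of the members, 28 lay within 2 kb of another member, in 13 groups, so they are not independent of one another. A matching share for the other eligible RNAs was not computed.

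The one group of 4, SPNCRNA.778, SPNCRNA.779, SPNCRNA.780 and SPNCRNA.782, had no coding gene opposite any of its RNAs. SPNCRNA.779 stood at 3.22 and 2.51 CPM in S7A, 17.3 and 20.8 in S2A, and 5.08 and 5.73 in Y1F, against 9.36 and 9.64 CPM in WT. SPNCRNA.780 stood at 1.31 and 1.65 CPM in S7A, 7.42 and 7.08 in S2A, and 1.34 and 1.73 in Y1F, against 4.08 and 4.31 CPM in WT. All 4 averaged below WT in S7A (23.7% to 45.8% of WT) and in Y1F (36.6% to 76.4%) and above WT in S2A (124% to 221%). The 3 members with a name of their own were omt3 (SPNCRNA.130), prl4 (SPNCRNA.04) and prl51 (SPNCRNA.51). Both prl RNAs were near the depth limit, with 18 and 23 counts over the S7A libraries against 34 and 38 over the WT libraries, and the fitted change of prl4 was −2.07 without S7A replicate 1 and −0.66 without S7A replicate 2, against −1.29 with all libraries.

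In S2A the same RNAs spread in both directions. Their S2A level ran between 1.99% and 296% of WT with a median of 69.2%, the upper end being set by the rule's limit of 3 times WT. Of 113 tested, 48 were lower than WT, 18 were higher and 47 did not pass, against 26.6% lower and 28.8% higher over all genes; the median change was −0.53, against 0.01 for all genes. Of the 657 other eligible RNAs 110 were lower and 216 higher (median 0.14). The rule favours RNAs that are high in the WT libraries, which this comparison shares, so the share that was lower is not independent of the choice of members.

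The largest S2A reduction was that of omt3, which has no coding gene opposite it and lies upstream of omt2. It stood at 2.98 and 2.47 CPM in S7A, 0.249 and 0.0674 in S2A, and 2.17 and 2.09 in Y1F, against 7.52 and 8.41 CPM in WT. Every mutant was below WT, S2A by far the most, with a fitted change of −5.52 ± 0.331 (SE; edgeR adjusted p = 4.77e-08) and of −6.75 without S2A replicate 1. SPNCRNA.1417, antisense to meu18, a gene upregulated in meiosis, was at 4.23 and 4.68 CPM in S7A, 2.64 and 2.43 in S2A, and 4.78 and 4.32 in Y1F, against 11.98 and 10.7 CPM in WT. It fell in S2A by 2.20 ± 0.172 (SE, log2; edgeR adjusted p = 4.90e-07). SPNCRNA.1345 and SPNCRNA.1310 also fell in S2A, with log2 changes of −3.38 and −3.36 (edgeR adjusted p = 0.000304 and 0.000111); that of SPNCRNA.1345 was −2.51 without WT replicate 1, the library in which it was high.

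The rule limits S2A to under 3 times WT, which kept out 13 RNAs that met the ratio. Within that limit, the largest S2A increase was at SPNCRNA.1413, of whose length 98.4% lies opposite cft2, a subunit of the cleavage and polyadenylation factor. It stood at 1.19 and 1.91 CPM in S7A, 12.2 and 12.6 in S2A, and 1.57 and 1.00 in Y1F, against 4.40 and 3.97 CPM in WT. The mutants parted fully, with S2A above WT by 1.52 ± 0.191 (SE, log2; edgeR adjusted p = 2.78e-05) and Y1F below it with a change of −1.82 ± 0.277 (edgeR adjusted p = 0.000342). SPNCRNA.1424, with no coding gene opposite, was likewise above WT in S2A and below it in Y1F, at 1.73 and 1.47 CPM in S7A, 14.7 and 15.2 in S2A, and 2.84 and 2.68 in Y1F, against 4.90 and 6.36 CPM in WT. SPNCRNA.1618 and SPNCRNA.782 completed the 4 largest S2A increases, of 1.36 ± 0.113 and 1.11 ± 0.235 (SE; edgeR adjusted p = 8.58e-07 and 0.00162). By annotation class, 15 of 27 antisense members were lower and 5 higher in S2A, 10 of 17 partly antisense members were lower, and 22 of 66 tested members with no coding gene opposite were lower and 12 higher. Among the other eligible RNAs, 38 of 309 antisense RNAs were lower and 150 higher, 29 of 131 partly antisense RNAs were lower and 30 higher, and 43 of 207 with no coding gene opposite were lower and 35 higher. The share that was higher among RNAs with no coding gene opposite was 18.2% for members, against 16.9% for the others. Among antisense RNAs it was 18.5% for members, against 48.5% for the others, and among partly antisense RNAs 0%, against 22.9%.

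In Y1F most members averaged below WT. Their Y1F level ran between 6.503% and 247% of WT, with a median of 65.5%, and 95 of the 115 averaged below WT. Of 113 tested, 53 were lower than WT, 2 were higher and 58 did not pass, against 17.4% lower and 17.6% higher over all genes (median change −0.66, against 0.01 for all genes). Without Y1F replicate 2 the count of lower ones was 32. Of the 657 other eligible RNAs 101 were lower and 79 higher (median −0.06); here too the WT libraries are those the rule used.

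The 4 largest Y1F reductions were those of SPNCRNA.283, SPNCRNA.1310, SPNCRNA.606 and SPNCRNA.292, all from low counts. The change of SPNCRNA.292 was −2.29 (edgeR adjusted p = 0.0101); it did not pass without Y1F replicate 1 (−1.89, adjusted p = 0.0507) or WT replicate 2 (−1.95, adjusted p = 0.0666), and was −3.39 without Y1F replicate 2. The fitted change of SPNCRNA.283 was −3.51, and it was −2.90 without Y1F replicate 1 and −6.59 without Y1F replicate 2. SPNCRNA.283 had 2 counts over the Y1F libraries and 21 over the WT libraries, which, pooled over libraries and divided by their summed totals, puts the Y1F to WT ratio at 0.0816, where the mean CPM gives 6.503% (exact 95% interval of the pooled ratio 0.0093 to 0.334, covering counting error only). It had 0.298 and 0.303 CPM in S7A, 0.847 and 0.607 in S2A, and 0 and 0.091 in Y1F, against 0.51 and 0.889 CPM in WT, so that Y1F was below all other strains. SPNCRNA.606, antisense to isp3, a spore surface protein gene, had 0.894 and 0.78 CPM in S7A, 0.548 and 0.742 in S2A, and 0.597 and 0.364 in Y1F, against 1.97 and 2.46 CPM in WT, with every mutant library below WT. The 2 increases were those of SPNCRNA.1618, 1.26 ± 0.114 (SE; edgeR adjusted p = 4.89e-06), and of SPNCRNA.1034. SPNCRNA.1034 stood at 1.49 and 1.82 CPM in S7A, 1.69 and 1.42 in S2A, and 5.68 and 7.37 in Y1F, against 4.204 and 4.45 CPM in WT. Its Y1F change was 0.56 ± 0.187 (SE; edgeR adjusted p = 0.0342), and it did not pass with DESeq2 (adjusted p = 0.189) or without Y1F replicate 2 (0.35, adjusted p = 0.338), WT replicate 1 (0.54, adjusted p = 0.117) or WT replicate 2 (0.58, adjusted p = 0.0766).

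**Figure D2:**
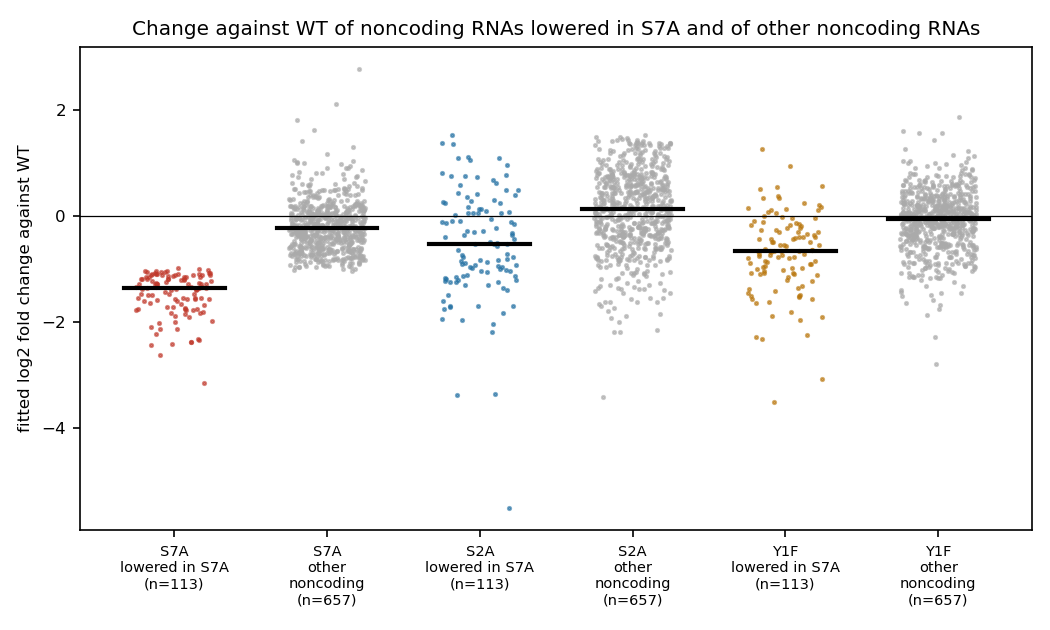
Fitted log2 fold change against WT (vertical axis) in S7A, S2A and Y1F for the 113 tested noncoding RNAs lowered in S7A (coloured points) and the 657 other eligible noncoding RNAs (grey points); thick lines are medians. The S7A column of the members is set by the rule; in S2A and Y1F the member medians are −0.53 and −0.66, against 0.14 and −0.06 for the others.

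Y1F and S2A were then compared with each other, a contrast that holds neither the S7A nor the WT libraries. It is not free of the rule, whose limit on S2A kept out 13 RNAs that met the ratio and so truncates the high end of S2A. The share of members called in either direction was near the background. Of 113 tested, 34 were lower and 20 higher in Y1F than in S2A, and 59 did not pass, against 25.1% lower and 23.7% higher over all genes (median difference −0.08, against −0.00 for all genes). The count of higher ones was 12 without S2A replicate 2. Of the 657 other eligible RNAs 193 were lower and 89 higher in Y1F (median −0.16), or 29.4% and 13.5%, against 30.1% and 17.7% of the members.

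SPNCRNA.1413 fell in Y1F relative to S2A by 3.34 ± 0.232 on the log2 scale (SE; edgeR adjusted p = 2.01e-07), SPNCRNA.1424 by 2.46 ± 0.164 (adjusted p = 1.45e-07) and SPNCRNA.648 by 2.46 ± 0.204 (adjusted p = 9.70e-07). SPNCRNA.648, opposite the DNA repair gene mre11 over 89.5% of its length, had 2.02 and 2.50 CPM in Y1F and 12.6 and 12.7 CPM in S2A, with 2.20 and 1.39 in S7A and 5.99 and 8.002 in WT. The Y1F and S7A libraries shared a low range there. In the other direction omt3 was higher in Y1F by 3.56 ± 0.426 (adjusted p = 2.44e-05), or 4.79 without S2A replicate 1, and SPNCRNA.1034 by 2.06 ± 0.219 (adjusted p = 8.91e-06). SPNCRNA.87 and SPNCRNA.1345 followed with 1.93 ± 0.471 and 1.82 ± 0.705 (SE; edgeR adjusted p = 0.00476 and 0.0478); SPNCRNA.1345 did not pass without any 1 of the S2A or Y1F libraries (1.38 to 2.25, adjusted p = 0.0792 to 0.247), nor SPNCRNA.87 without S2A replicate 1 (1.48, adjusted p = 0.0628). Neither passed with DESeq2 (adjusted p = 0.0563 for SPNCRNA.1345 and 0.0743 for SPNCRNA.87), and SPNCRNA.1345 also missed with scaling on coding genes (adjusted p = 0.0506) and with no filter (adjusted p = 0.0509). SPNCRNA.283 was lower in Y1F, on the 2 counts given above.

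**Figure D3:**
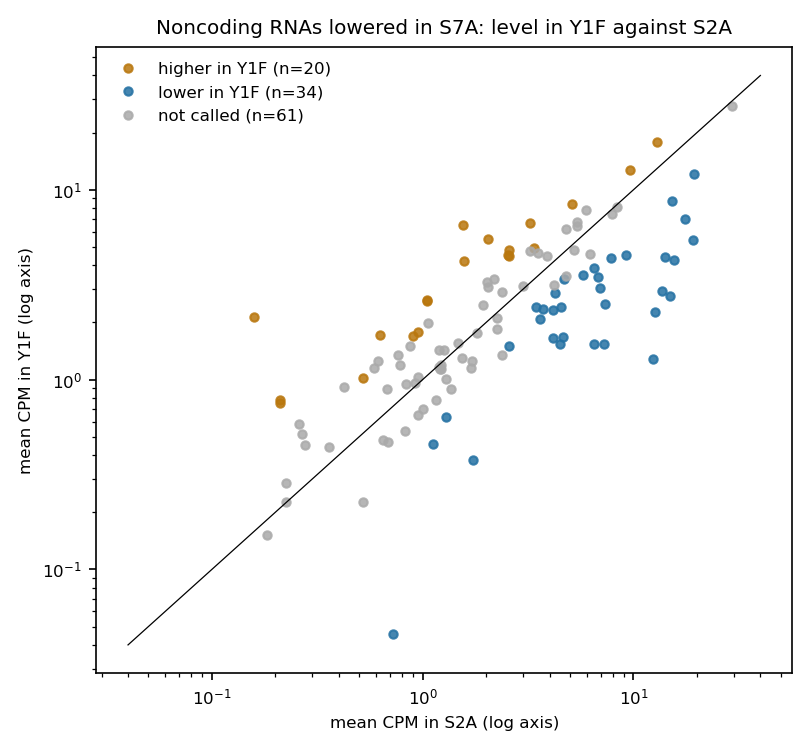
Mean CPM in Y1F (vertical, log axis) against mean CPM in S2A (horizontal, log axis) for the 115 members, each a point; the line marks equal levels and colours mark the edgeR call at an adjusted p under 0.05. Members below the line, 34 of them called, were lower in Y1F, and 20 above it were called higher in Y1F; the grey points include the 2 that were not tested.

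The counts of coding genes beside the members were not used by the rule, and their S7A change was tested. These tests use the same S7A and WT libraries in which the members were chosen as low. Where a gene's counts are not fully separate from a member's, its change is not independent of that choice. More genes opposite a member were called lower than higher: 49 such genes lay opposite 44 members, and of 46 tested 17 were lower, 7 higher and 22 did not pass in S7A against WT (37.0% and 15.2%, against 23.4% lower and 25.2% higher over all 4990 coding genes tested). The median change was −0.09, against 0.01 for all coding genes. Of 528 tested genes opposite the other eligible RNAs, 141 (26.7%) were lower and 130 (24.6%) higher. No source used here names a strand setting for the counts, so those of RNAs that overlap on opposite strands may not be fully separate. A change of 2-fold or more was reached by 5 of the 17 reductions, and the largest increase was 0.73 on the log2 scale.

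Among the reductions, abp2 (an ARS-binding protein gene), abc3 (an ABC transporter of the vacuolar membrane), meu18 and tht1 (a nuclear membrane protein of karyogamy) changed most. meu18, opposite SPNCRNA.1417, stood at 17.5 and 16.2 CPM in S7A, against 40.6 and 40.6 CPM in WT, a change of −1.27 ± 0.0715 (SE; edgeR adjusted p = 5.77e-08). In S2A (76.4 and 81.3 CPM) and Y1F (80.8 and 80.3 CPM) meu18 was above WT, although SPNCRNA.1417 was below WT in all 3 mutants. tht1, opposite SPNCRNA.644, showed the same split: 9.89 and 8.66 CPM in S7A, 49.9 and 50.4 in S2A, and 37.6 and 44.8 in Y1F, against 18.9 and 21.3 CPM in WT. abc3, of which SPNCRNA.1313 overlaps with 6.73% of its own length, stood at 47.1 and 45.4 CPM in S7A, against 111 and 159 CPM in WT (−1.54 ± 0.178, adjusted p = 2.78e-05), and trm44, a tRNA methyltransferase gene opposite SPNCRNA.1214, at 116 and 114 CPM, against 197 and 206 CPM in WT (−0.81 ± 0.0416, adjusted p = 2.86e-08).

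Increases opposite a member were smaller. SPAC13C5.04, opposite SPNCRNA.645, stood at 37.6 and 33.5 CPM in S7A, against 21.3 and 21.5 CPM in WT (0.73 ± 0.0748, edgeR adjusted p = 1.18e-05). Its neighbour tht1 fell, so the adjoining members SPNCRNA.644 (34.7% of WT in S7A) and SPNCRNA.645 (46.2% of WT) had opposite genes that moved in different directions. jnm1, a dynactin subunit gene, rose by 0.51 ± 0.111 (adjusted p = 0.00254), and pdp1, a PWWP protein gene, by 0.42 ± 0.0948 (adjusted p = 0.00333). Named after their values were seen, the genes opposite SPNCRNA.1413, SPNCRNA.1277 and SPNCRNA.648 changed by less than 2-fold in S7A: cft2 rose by 0.20 ± 0.0446 (adjusted p = 0.00252), pep3 fell by 0.17 ± 0.0586 (adjusted p = 0.0337) and mre11 fell by 0.42 ± 0.049 (adjusted p = 2.94e-05).

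**Figure D4:**
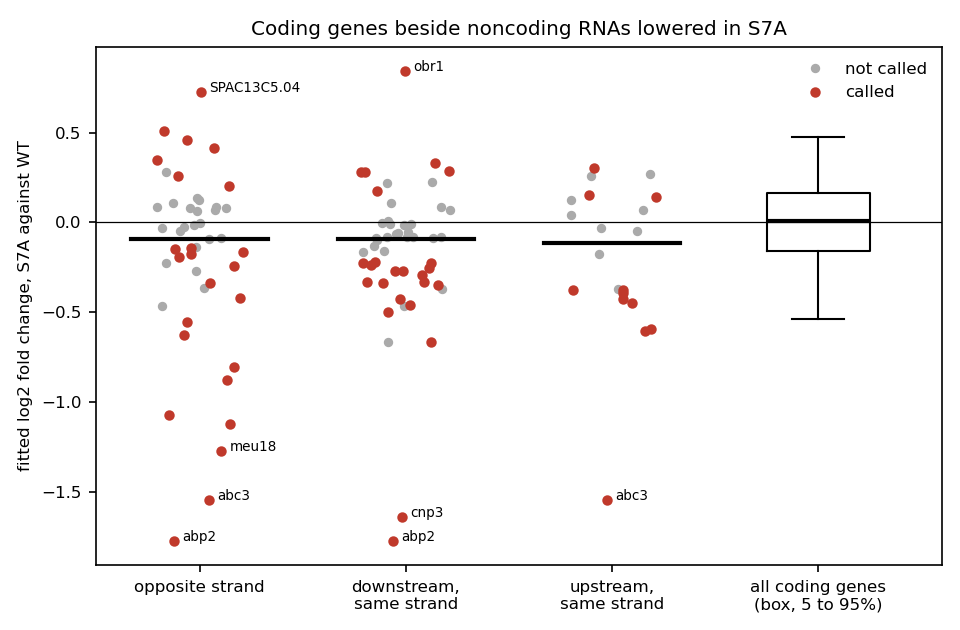
Fitted log2 fold change of coding genes in S7A against WT (vertical axis) by their position relative to a member (opposite strand; downstream or upstream on the same strand within 1000 bases), with all coding genes as a box (quartiles, whiskers at the 5th and 95th percentiles). Red points passed the test, grey points did not, and thick lines are medians (−0.09, −0.09 and −0.11, against 0.01 for all coding genes); abp2 and cnp3 lie lowest.

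Genes downstream of a member on the same strand showed a like balance, in a set that shares genes such as abp2 with the opposite set. Of 51 within 1000 bases, 50 were tested, of which 18 (36.0%) were lower, 6 (12%) were higher and 26 did not pass in S7A, with a median of −0.09. Beside the other eligible RNAs, 48 (24.0%) of 200 were lower and 55 (27.5%) higher. The largest increase was that of obr1, a flavodoxin-like protein gene downstream of SPNCRNA.794, which stood at 628 and 607 CPM in S7A, against 342 and 344 CPM in WT (0.85 ± 0.0456, adjusted p = 4.24e-08). vps1, a dynamin-like GTPase gene, and spt16, a histone chaperone gene, rose by 0.33 ± 0.0421 (adjusted p = 6.00e-05) and 0.28 ± 0.0462 (adjusted p = 0.000381), and omt2, downstream of omt3, fell by 0.67 ± 0.111 (adjusted p = 0.000403). Of 20 tested genes upstream of a member, 8 (40%) were lower and 3 (15%) higher (median −0.11), against 38 (32.2%) and 30 (25.4%) of 118 beside the other eligible RNAs; apart from abc3, the largest was that of pcs2, upstream of SPNCRNA.778 (−0.60 ± 0.0657, adjusted p = 1.76e-05).

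The locus of abp2 and cnp3, the fission yeast CENP-C gene of the inner kinetochore, held the largest changes among coding genes opposite, downstream or upstream of a member. SPNCRNA.1674 lies upstream of abp2 on its strand, and SPNCRNA.1673 lies opposite abp2 over 27.1% of its own length and upstream of cnp3 on the strand of cnp3. SPNCRNA.1673 stood at 2.38 and 2.21 CPM in S7A, 9.17 and 6.47 in S2A, and 3.73 and 5.05 in Y1F, against 9.17 and 11.1 CPM in WT. SPNCRNA.1674 stood at 0.775 and 0.693 CPM in S7A, 4.63 and 3.71 in S2A, and 1.64 and 1.68 in Y1F, against 2.42 and 3.08 CPM in WT. Both were lowest in S7A and below WT in Y1F, and they parted in S2A, where SPNCRNA.1674 was above WT.

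Both coding genes were lowest in S7A and below WT in Y1F as well. abp2 stood at 42.9 and 36.3 CPM in S7A, 181 and 180 in S2A, and 112 and 121 in Y1F, against 135 and 135 CPM in WT. Its change was −1.78 ± 0.0639 in S7A (SE; edgeR adjusted p = 1.69e-09), while S2A gave 0.38 ± 0.0571 (adjusted p = 0.000117) and Y1F gave −0.26 ± 0.0584 (adjusted p = 0.00512). cnp3 stood at 46.5 and 40.7 CPM in S7A, 133 and 136 in S2A, and 84.3 and 82.0 in Y1F, against 133 and 137 CPM in WT, with changes of −1.64 ± 0.0559 in S7A (adjusted p = 1.28e-09), while S2A gave −0.04 ± 0.0512 (adjusted p = 0.486) and Y1F gave −0.75 ± 0.0531 (adjusted p = 5.31e-07). Both S7A libraries of abp2 and cnp3 thus lay below every library of the other strains. The same held for SPNCRNA.1673 and SPNCRNA.1674, whose place below WT is set by the rule. The locus was picked for its large changes in S7A, so the 4 transcripts are not counted as agreement.

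**Figure D5:**
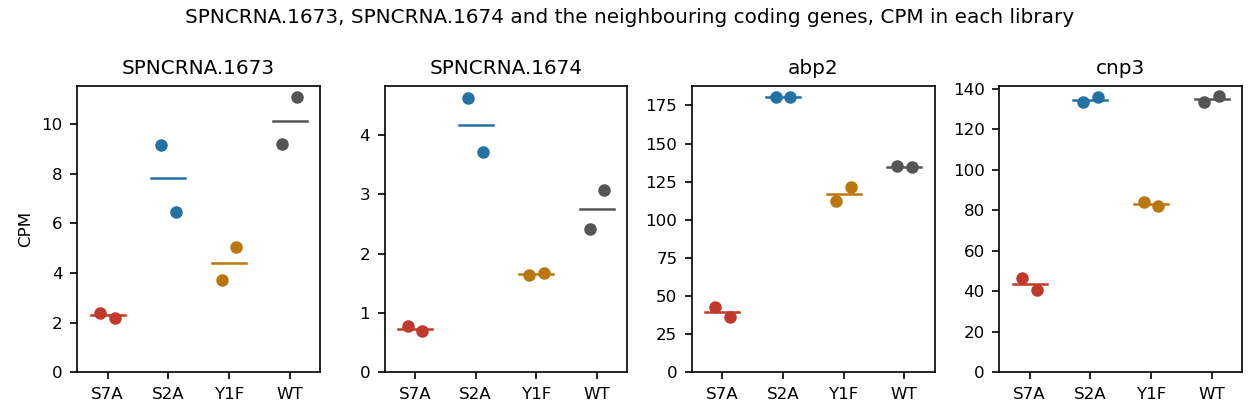
CPM in each library (points; lines are strain means) of SPNCRNA.1673, SPNCRNA.1674, abp2 and cnp3, one panel each with its own axis starting at 0. In all 4 panels both S7A libraries lie below every other library, with abp2 averaging 39.6 CPM in S7A, against 134.9 CPM in WT. For SPNCRNA.1673 and SPNCRNA.1674 the S7A level below WT is set by the rule.

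Genes of the machinery that acts on noncoding RNAs changed in both directions in S7A, and no call among the following 4 lists reached 2-fold; over all genes 47.4% were called in either direction. Of 13 termination genes 5 were higher, 3 lower and 5 did not pass (median 0.03, against −0.01 for all genes); rhn1, a termination cofactor, rose by 0.47 ± 0.0575 (adjusted p = 3.96e-05) and seb1, an RNA-binding termination factor, fell by 0.40 ± 0.0439 (adjusted p = 1.72e-05). Of 14 nuclear RNA surveillance genes 3 were higher and 4 lower (median 0.00). Among them mmi1, which marks meiotic transcripts for decay, was lower, with a change of −0.35 ± 0.0406 (adjusted p = 2.90e-05). Fewer of these genes were called without S7A replicate 1, S7A replicate 2 or WT replicate 1. Of 7 RNAi genes 1 was higher (rdp1) and 1 lower (arb1), and neither change, 0.17 and −0.21, passed with DESeq2 (adjusted p = 0.0539 and 0.16), or without S7A replicate 1, S7A replicate 2 or WT replicate 1 (adjusted p = 0.0581 to 0.124); without WT replicate 2 arb1 again did not pass (adjusted p = 0.129). Of 7 genes of Set2 and the Clr6 complex II, which keep transcribed chromatin deacetylated, 4 were higher and 2 lower (median 0.12), and 3 were called without S7A replicate 2.

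The phosphate regulon is the textbook case of genes repressed by upstream noncoding transcription. tgp1, a glycerophosphodiester transporter gene, stood at 203 and 220 CPM in S7A, 38.2 and 48.5 in S2A, and 37.9 and 33.6 in Y1F, against 24.5 and 20.9 CPM in WT. The noncoding RNA known to repress it, SPNCRNA.1343, met the ratio but not the WT maximum and so is not a member; it stood at 6.91 and 5.98 CPM in S7A, 38.6 and 40.1 in S2A, and 29.8 and 34.5 in Y1F, against 32.5 and 30.8 CPM in WT. Of the 3 regulon genes, tgp1 (3.22 ± 0.111, adjusted p = 1.28e-09) and pho1, an acid phosphatase gene (2.00 ± 0.109, adjusted p = 4.49e-08), rose in S7A. The change of pho84, a phosphate transporter gene, was 0.30 ± 0.0854 (adjusted p = 0.0124), and it did not pass with DESeq2 (adjusted p = 0.0537), without S7A replicate 2 (0.26, adjusted p = 0.0814) or without WT replicate 2 (0.18, adjusted p = 0.0937).

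Other noncoding RNAs met the S7A ratio but another limit kept them out. The WT maximum excluded 6, with WT means between 20.1 and 53.5 CPM, and the limit on S2A excluded 13. Those kept out by S2A included SPNCRNA.1687, with means of 6.12 CPM in S7A, 63.3 in S2A and 40.2 in Y1F, against 18.7 CPM in WT, and SPNCRNA.742, with 2.19 CPM in S7A, 38.4 in S2A and 2.82 in Y1F, against 5.21 CPM in WT. Over all 1001 tested noncoding RNAs that are not members, 219 were lower and 110 higher in S7A (21.9% and 11.0%, median −0.17), a set from which the members have been removed. At a change of 2-fold or more the balance turned, with 28 lower and 59 higher. With no limit on the size of the change, fewer were called in either direction without S7A replicate 2.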

How the data were processed

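The deposited table holds read counts per gene for 8 libraries, which are whole numbers without normalization. The authors' processing is given only as names: HISAT2, featureCounts, StringTie, DESeq2, deepTools and the build ASM294v2, per the submitters' processing notes, with no versions and no strand setting. Per the labels' protocols, hot-phenol RNA was depleted of ribosomal RNA and made into stranded, paired libraries of 100 nt reads.

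From the counts, CPM was computed per library and members were chosen as described above. Members and gene lists were chosen with earlier results of these data known. All 8 libraries were fitted with edgeR 4.0.16 in R 4.3.3 (TMM scaling, filterByExpr with a minimum count of 10, 1 mean per strain, quasi-likelihood test, Benjamini-Hochberg adjustment over 6243 genes, called under an adjusted p of 0.05). The fit had 4 residual degrees of freedom. SE is the size of the log2 change divided by the square root of F, and can be too small near 0 counts. Fold changes are on the fitted scale, while CPM is plain and not divided by length, so levels are compared only between strains. The steps were tested on simulated data.

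Neighbours came from the RefSeq annotation of ASM294v3, in which 6778 of the 7000 IDs were found; since its build differs from that of the counts, no coordinates or sequences are printed. Promoter motifs were not analysed here. Named members were the 10 highest in WT, the 8 lowest ratios, those with a name, and up to 4 calls each way per contrast; named neighbours were up to 6 calls each way averaging at least 5 CPM with S7A and WT libraries apart, and up to 2 calls per list, with rpb1, pho1, pho84 and tgp1 always. Python 3.11.15, pandas 2.3.3, numpy 2.4.6, scipy 1.17.1 and matplotlib 3.10.9 were used for tables and figures. The other settings tried were DESeq2 1.42.0, RLE scaling, scaling on coding genes, other filters, the compared groups alone, a replicate block, a 2-fold limit, other gaps, overlaps and ratios, and each library left out in turn.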

Additional observations from a re-analysis of the deposited data

How the results depend on the processing

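Depth limits the results on single members, most of which had under 10 CPM in WT, and with 2 libraries a strain the spread rests on 4 residual degrees of freedom. No named value changed direction under the settings run where the main fit or the other setting called it. Sign changes of values called in neither were not counted. The counts of other noncoding RNAs in S7A at the 2-fold limit are shaped by the rule, as described above. Of 1797 recomputed named values, 1695 kept their side of the threshold, 97 no longer passed and 5 passed where they had not. With DESeq2, 31 members were lower in S2A and 33 in Y1F, 1 was higher in Y1F, 12 were higher in Y1F than in S2A, 4 surveillance and 0 RNAi genes were called in S7A (2 RNAi genes were called by edgeR, and none of the RNAi changes reached 2-fold), and 141 other noncoding RNAs were lower and 72 higher in S7A. With a change of 2-fold or more required, 32 members were lower and 1 higher in Y1F, 7 were higher in S2A, and 20 were lower and 9 higher in Y1F than in S2A. At that limit 5 opposite, 2 downstream and 1 upstream coding genes were lower and 0 of each kind were higher. These sets share genes: abp2 was both opposite and downstream, and abc3 both opposite and upstream. At 2-fold or more, 0 termination, 0 surveillance, 0 RNAi and 0 Set2 and Clr6 complex II genes were called. At the same limit 28 other noncoding RNAs were lower and 59 higher. Fitting only the compared groups left 1 member higher in Y1F. Within 2000 bases 12 downstream and 11 upstream genes were higher in S7A, and within 500 bases 3 upstream genes were lower and 1 higher. A ratio of at most 0.4 gave 66 members and one of at most 0.6 gave 192; scaling CPM by TMM gave 118, which held all 115. The cause of these differences was not tested, beyond the stricter or wider limits themselves. Shares over all genes were not computed for the other settings, so counts in this section are set only beside those of the main fit. Not every count of the main fit is listed for each setting.

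Leaving out 1 library at a time, 88 to 97 members were lower in S7A, 35 to 46 lower and 14 to 17 higher in S2A, 32 to 45 lower and 1 to 2 higher in Y1F, and 25 to 29 lower and 12 to 16 higher in Y1F than in S2A. Coding genes in S7A numbered 12 to 15 lower and 7 to 8 higher opposite members, 15 to 17 and 5 to 6 downstream, and 6 to 8 and 2 to 3 upstream. The lists gave 7 to 8 termination, 3 to 5 surveillance, 0 to 1 RNAi, 3 to 5 Set2 and Clr6 complex II and 2 to 3 phosphate calls, and 132 to 185 lower and 61 to 105 higher other noncoding RNAs. A lone library of a strain is then assumed to vary like the others. The rule used the S7A against WT contrast, so nothing is read from the counts of members lower in S7A in this paragraph. Replicate numbers did not pair the samples (correlations of deviations between strains of −0.163 to 0.178); with the replicate block 103 members were lower in S7A, 48 lower and 16 higher in S2A, 51 lower and 2 higher in Y1F, and 31 lower and 19 higher in Y1F than in S2A. Chosen after the data were seen, crossed S2A numbers gave 49 lower and 16 higher in S2A, and leaving out coding genes that overlap a member on its own strand left 17 opposite, 18 downstream and 8 upstream genes lower. RLE scaling and scaling on coding genes moved the median of all genes by at most 0.033 on the log2 scale.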
